A study of Mus musculus with 6 samples.

Results

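The C-type lectin receptors and the SYK-CARD9 route were followed through 10 genes in RAW264.7, a macrophage-like line established from mouse. The genes were 5 carbohydrate-binding receptors (Clec7a, Clec4a1, Clec4d, Clec4e and Clec4n), the adaptor gene Fcer1g, and 4 signalling genes (Syk, Card9, Bcl10 and Malt1). They were found by gene symbol in the array annotation, 10 of 23625 genes named there, with 11 of 55681 non-control probes. A probe carried the current symbol for 9 genes. Syk stands in the annotation under its older symbol Sykb, with 2 probes, and was matched through its RefSeq accession and synonym. All 11 probes were well above background on every distinct scanner array, so none of the 10 genes was lost to the filter on dim probes, and none of these spots was saturated. Each gene other than Syk rests on 1 probe, and probes were not compared with related transcripts.

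The cells were kept in DMEM medium alone or given AEPS, a root polysaccharide of Actinidia eriantha (a kiwifruit relative), at a dose of 50 µg/ml, and all were taken at 4 h. Each group has 3 samples, and total RNA was hybridised to 1-colour Cy3 Agilent arrays. The labels do not say whether a group's samples are separate cultures, and every p-value reflects only the spread among them, which may be technical. The labels name no engineered allele. The model is a transformed line rather than primary macrophages. In such bulk samples fewer cells expressing a gene and less RNA per cell cannot be told apart.

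As background, C-type lectin receptors are surface proteins of myeloid cells that bind sugars and glycolipids of microbes. Dectin-1 (Clec7a) carries a tyrosine motif of its own, while Mincle (Clec4e), MCL (Clec4d) and Dectin-2 (Clec4n) lean on the Fc receptor gamma chain encoded by Fcer1g, whose ITAM tyrosines recruit the kinase SYK. SYK then acts through protein kinase C delta on the scaffold CARD9, which binds BCL10 and the protease MALT1, and this complex opens the way to NF-kB and to inflammatory cytokine genes.

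The arrays need 1 caution before the results. The deposited scanner files of replicates 1 and 2 were identical in each group, while the replicate 3 file follows the replicate 2 column of the authors' value table (Spearman 0.999991 across probes in both groups). The scanner files therefore hold 2 distinct arrays per group, on 2 slides with 1 array of each group. The value table holds 6 distinct columns, and its replicate 3 columns match no scanner file. Values below are from that table unless scanner files are named. They are on a log2 scale whose exact offset is unknown, and each column has a median of 4.71. Of 59305 non-control spots, 55.4% to 58.7% were well above background, and the number of arrays limits the precision. As for the label of the line, 11 of 12 macrophage markers were well above background on every scanner array, Mertk being the exception. So were 4 of 6 dendritic cell markers and 1 of 8 fibroblast or epithelial markers. The summed level of the macrophage list was 18.54 to 18.56 in control and 18.47 to 18.58 with AEPS (log2). That of the dendritic cell list was 16.33 to 16.49 and 16.24 to 16.36. The test used below called 5 macrophage markers higher and 3 lower, against 21.5% and 19.6% of named genes. Of 5 B cell markers 2 were above background on every array, with Ms4a1 and Pax5 among those that were not. The summed level of that list was 7.96 to 8.05 in control and 8.53 to 8.68 with AEPS. The summed level of T or NK cell markers was 12.90 to 13.45 in control and 12.30 to 13.03 with AEPS, with 2 of 6 above background on every array, and that of neutrophil or mast cell markers 12.09 to 12.47 and 11.74 to 12.10, with 2 of 7. The part of such cells or genes in the results was not tested.

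Promoter sequences of 8 of the 10 genes were found in the RefSeq tables of build GRCm38.p6. Clec4n and Malt1 had no entry. Clec4n, Clec4d and Clec4e are direct neighbours on chromosome 6, with 0 annotated genes between them. The stretches upstream of Clec4d and Clec4e are shown because these neighbouring genes had log2 changes of 0.24 and 1.54, a difference that was not tested. That of Bcl10 is shown because it alone among the 8 holds an NF-kB consensus match. Each runs 5′ to 3′ on the gene's strand and ends 1 base before the annotated start; capitals mark the matches named after them.
Clec4e, chr6:123289872-123290121, minus strand: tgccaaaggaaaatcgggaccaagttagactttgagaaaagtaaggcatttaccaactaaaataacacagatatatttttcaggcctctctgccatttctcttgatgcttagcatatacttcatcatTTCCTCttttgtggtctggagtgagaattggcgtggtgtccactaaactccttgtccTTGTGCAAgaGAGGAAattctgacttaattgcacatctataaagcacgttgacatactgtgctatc
Clec4d, chr6:123261857-123262106, plus strand: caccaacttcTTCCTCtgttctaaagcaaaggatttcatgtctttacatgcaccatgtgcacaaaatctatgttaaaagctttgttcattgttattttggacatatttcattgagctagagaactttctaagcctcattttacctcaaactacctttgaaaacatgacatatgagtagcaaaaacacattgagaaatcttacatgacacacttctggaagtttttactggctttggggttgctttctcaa
Bcl10, chr3:145924012-145924261, plus strand: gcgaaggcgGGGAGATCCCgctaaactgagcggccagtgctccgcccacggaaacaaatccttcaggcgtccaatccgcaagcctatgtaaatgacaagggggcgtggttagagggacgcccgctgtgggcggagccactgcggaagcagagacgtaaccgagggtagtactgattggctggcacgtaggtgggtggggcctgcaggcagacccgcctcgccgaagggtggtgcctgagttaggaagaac
In Clec4e the capitals mark, from the 5′ end, a PU.1 core (GAGGAA, here on the other strand), a C/EBP core (TTGC, any 2 bases, then AA, here on the other strand) and a PU.1 core on the gene's own strand. In Clec4d they mark 1 PU.1 core on the other strand, and in Bcl10 an NF-kB consensus, a degenerate pattern that this stretch matches on both strands. Both strands were searched in 32841 promoters of 300 bases, 250 before and 50 after a start. A C/EBP core was found in 10.8% of them, a PU.1 core in 28.3%, the NF-kB consensus in 8.46% and the AP-1 motif TGANTCA in 7.81%. Clec4d has 2 more PU.1 cores just after its start. Clec7a, Clec4a1 and Syk hold PU.1 cores as well, Fcer1g and Card9 hold none of the 4 motifs, and the AP-1 motif was in none of the 8 genes' windows. A match describes the letters only, and binding was not measured.

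Over the 10 genes, Clec7a, Clec4e, Bcl10 and Malt1 rose with AEPS and Card9 fell, while Clec4a1, Clec4d, Clec4n, Fcer1g and Syk did not pass the test (limma, Benjamini-Hochberg adjusted p under 0.05 over 25845 features). The same test called 41.1% of 14978 named genes, 21.5% higher and 19.6% lower, so 5 calls among 10 genes lie near the background share. That background count, 6154 genes, was 4085 without AEPS replicate 2, its higher part, 3216, was 2109 without AEPS replicate 2, and its lower part, 2938, was 1882 without control replicate 2. In 8 of the 10 genes the values of the groups did not overlap, 6 with AEPS above and 2 with AEPS below, where 28.8% and 27.7% of named genes did so (56.5% in all). With the replicate number as a block, which pairs the samples, Clec4d, Clec4n and Fcer1g passed too, against a background of 56.3% of named genes (28.4% higher and 27.8% lower).

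**Figure D1:**
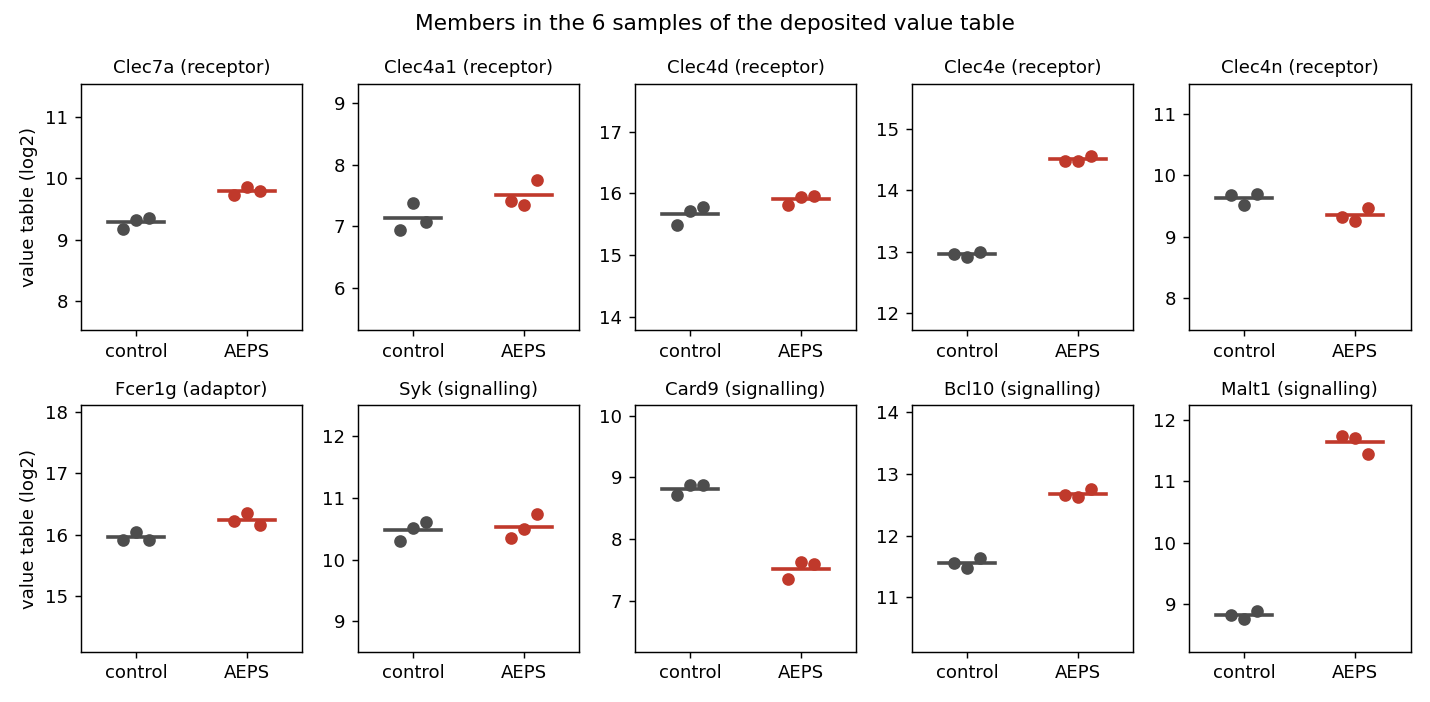
Values of the 10 genes (log2, deposited value table) in 3 control samples (grey) and 3 AEPS samples (red); points are samples, bars are group means, and every panel spans 4 log2 units. Malt1, Clec4e and Bcl10 stand clearly higher with AEPS and Card9 lower, while Syk and Clec4a1 overlap between the groups.

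Among the receptors, Clec4e changed most. Clec4e, or Mincle, binds glycolipids such as those of mycobacteria. It was at 12.97, 12.92 and 12.99 in control replicates 1 to 3 and at 14.48, 14.47 and 14.56 in the AEPS samples. The AEPS values lay close together and far above every control. Clec4e rose by 1.54 ± 0.07 (limma's moderated SE, n = 3 per group, 95% interval 1.38 to 1.71, adjusted p = 0.000161), which is 2.91-fold. On the scanner arrays its unscaled signal was 9147 and 7016 intensity units in control and 38053 and 35861 with AEPS. The AEPS arrays were brighter, with 75th percentiles of 574.7 and 487.6 units against 400.7 and 286.7 in control. Scaled to these percentiles, the log2 change was 1.56 (adjusted p = 0.0249). That fit called 8.71% of named genes, 5.23% higher and 3.48% lower.

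Clec7a, or Dectin-1, the receptor for fungal beta-glucans, changed less. Its controls were at 9.18, 9.32 and 9.35 and its AEPS samples at 9.72, 9.85 and 9.79. Every AEPS sample lay above every control, by more than the spread within either group. Clec7a rose by 0.50 ± 0.08 (95% interval 0.30 to 0.70, adjusted p = 0.00706, 1.42-fold). This call was lost without the replicate 3 samples and in the scanner fits that did not block by slide: without replicate 3 of both groups the change was 0.54 with an adjusted p of 0.072, and with the scanner arrays 0.58 with an adjusted p of 0.109, or 0.037 with the slide as a block (16.6% of named genes were then called higher).

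Clec4d, or MCL, which pairs with Mincle at the surface, was at 15.49, 15.72 and 15.78 in control and 15.81, 15.94 and 15.96 with AEPS. The groups lay next to each other without overlapping. Its change was 0.24 ± 0.10 (95% interval -0.02 to 0.50, adjusted p = 0.134, and 0.0338 with the replicate block). The difference between Clec4d and its neighbour Clec4e in response was not tested, but their 95% intervals are 0.50 at most against 1.38 at least.

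Clec4n, or Dectin-2, a receptor for mannose-rich ligands, was the receptor whose values lay lower with AEPS. Controls were at 9.68, 9.52 and 9.69, and AEPS samples at 9.32, 9.25 and 9.47. The groups lay side by side with no overlap. The change was -0.28 ± 0.09 (95% interval -0.52 to -0.05, adjusted p = 0.0673, and 0.0231 with the block), and it turned to 0.34, also short of the threshold, when the scanner arrays were scaled to spike-in probes (adjusted p = 0.517).

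Clec4a1, a lectin of the DCIR group, was the dimmest and most variable receptor probe. Its controls were at 6.94, 7.38 and 7.07 and its AEPS samples at 7.41, 7.35 and 7.75, so the groups overlapped. The change was 0.37 ± 0.16 (95% interval -0.04 to 0.78, adjusted p = 0.141), and 0.10 on the scanner arrays.

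The adaptor gene Fcer1g was near the threshold. Controls were at 15.92, 16.04 and 15.92, and AEPS samples at 16.22, 16.35 and 16.15. All AEPS values were higher, with a narrow gap between the groups. Its change was 0.28 ± 0.08 (95% interval 0.07 to 0.49, adjusted p = 0.0519, and 0.0181 with the block).

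The signalling genes went different ways. Syk, the kinase that reads the ITAM, was at 10.31, 10.52 and 10.61 in control and 10.35, 10.50 and 10.74 with AEPS on its brighter probe. Each AEPS value had a control value near it. The change was 0.05 ± 0.14 (adjusted p = 0.815), and its 95% interval of -0.29 to 0.39 leaves room for small changes in either direction. The dimmer Syk probe gave -0.23 ± 0.17 (adjusted p = 0.365 with each probe tested on its own), so the probes differed in sign and neither passed.

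Card9, the scaffold between SYK and BCL10, was the gene that fell. It was at 8.72, 8.87 and 8.87 in control and at 7.35, 7.62 and 7.59 with AEPS. No AEPS sample came near a control. Card9 fell by 1.30 on the log2 scale (SE 0.10, 95% interval -1.56 to -1.04, adjusted p = 0.00084), 2.46-fold lower. On the scanner arrays its unscaled signal was 450 and 361 units in control and 260 and 237 with AEPS. Scaled to the 75th percentile of each array, the log2 change was -1.34 (adjusted p = 0.0297). Scaled to the spike-ins the change was -0.71 and did not pass (adjusted p = 0.135).

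Bcl10, which CARD9 binds and which assembles into filaments that bring in MALT1, was at 11.55, 11.47 and 11.63 in control and 12.65, 12.62 and 12.76 with AEPS. The groups were far apart for the spread within them. Bcl10 rose by 1.13 ± 0.08 (95% interval 0.93 to 1.32, adjusted p = 0.000591, 2.18-fold).

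Malt1, the protease of the complex, had the largest change of the 10 genes. It was at 8.83, 8.77 and 8.90 in control and 11.74, 11.70 and 11.45 with AEPS. AEPS replicate 3 was the lowest of its group and still far above every control. Malt1 rose by 2.80 ± 0.10 (95% interval 2.54 to 3.05, adjusted p = 0.00011, 6.95-fold). Its unscaled scanner signal was 485 and 336 units in control and 5345 and 4787 with AEPS. Scaled to the 75th percentile of each array, the log2 change was 3.00 (adjusted p = 0.00946).

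**Figure D2:**
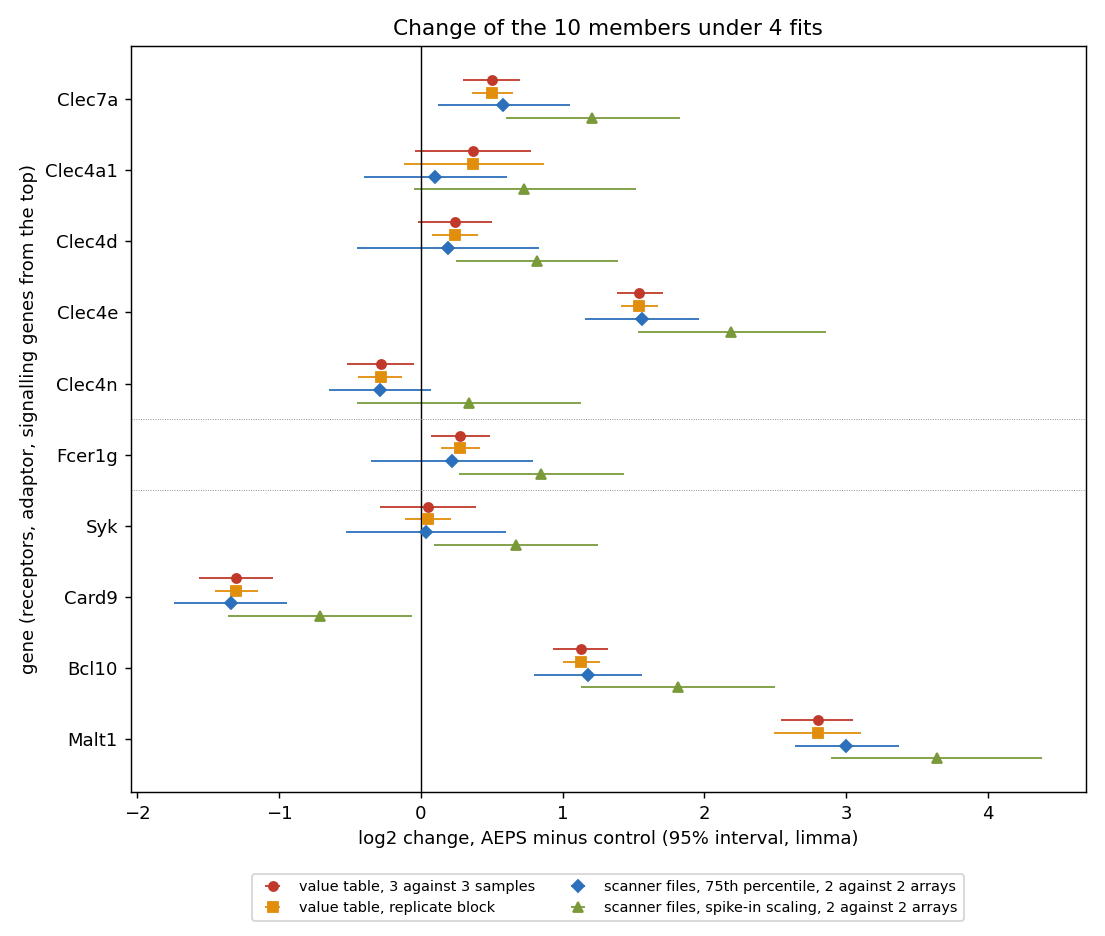
Log2 change (AEPS minus control) with limma's 95% interval for the 10 genes under 4 fits: the value table without and with the replicate block, and the scanner arrays scaled to their 75th percentile or to spike-ins. Clec4e, Bcl10 and Malt1 stay right of 0 and Card9 left of 0 in all 4, spike-in scaling shifts every gene to the right, and the Clec4n value turns above 0 with it.

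Set side by side, 2 of 5 receptors rose and none fell in this test, with a median change of 0.37, and 2 of 4 signalling genes rose and 1 fell, with a median of 0.59. The median over all named genes was -0.02. The same test called 21.5% of named genes higher and 19.6% lower. With the replicate block 3 receptors were called higher and 1 lower, where 28.4% and 27.8% of named genes were. With the scanner arrays Clec4e alone among the receptors was called, against 5.23% of named genes higher and 3.48% lower. The signalling calls were the same in number in both fits. Leaving out any 1 of the 6 samples changed the call of none of the 10 genes. In these runs Malt1 ranged from 2.74 to 2.89, Clec4e from 1.52 to 1.56, Bcl10 from 1.08 to 1.17, Card9 from -1.35 to -1.21 and Clec7a from 0.45 to 0.54. Syk ranged from -0.06 to 0.14.

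Pairs of samples with 1 replicate number gave nearly the same size in most genes. Clec4e differed by 1.51, 1.55 and 1.57 in pairs 1 to 3, Bcl10 by 1.10, 1.15 and 1.13, and Card9 by -1.37, -1.25 and -1.28. Malt1 differed by 2.91, 2.93 and 2.55. Clec4a1 was the least regular gene, with 0.47, -0.03 and 0.68.

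By the smallest root mean square difference over the 6 columns, each gene being set against its own control mean, the 3 named genes most like Clec4e were Jdp2 (0.0332 log2 units), Nfkb1 (0.0434) and Rasgef1b (0.0481). Jdp2 encodes an AP-1 family repressor and Nfkb1 the p105 and p50 NF-kB subunit. Those most like Card9 were Phf13 (0.0183), Tmem198b (0.0335) and Sema6b (0.0379).

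Around the 10 genes, 8 lists covered the rest of the route. Lists were described by their counts and medians with no test of their own, against the 21.5% higher and 19.6% lower among named genes. Of 25 other C-type lectin receptors 12 were measured, the rest being dim in both groups. Of the 12, 3 rose and 1 fell (median 0.04). Clec2d, a ligand of the NK receptor NKR-P1, rose by 3.26 ± 0.20, the DAP12-coupled receptor gene Clec5a by 1.10 ± 0.20 and the scavenger lectin gene Colec12 by 0.26 ± 0.07 (adjusted p = 0.000392, 0.0109 and 0.036). Colec12 lost its call without any 1 of the 6 samples (adjusted p = 0.0549 to 0.124). Clec5a lost its call on the scanner arrays (adjusted p = 0.0828, and 0.064 with the slide as a block), with spike-in scaling (0.0679) and without replicate 3 of both groups (0.0541). Cd209d, a relative of DC-SIGN, fell by 1.40 (SE 0.08, adjusted p = 0.00037), and had -0.76 with spike-in scaling (adjusted p = 0.145). Mgl2, a galactose-type lectin gene, had -0.18 ± 0.11 (adjusted p = 0.272). Clec16a, counted in this list though not a lectin receptor despite its name, had 0.29 ± 0.11 (adjusted p = 0.112, and 0.0239 with the block).

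Other receptors for polysaccharides and microbial patterns rose in 11 of 18 measured cases and fell in 3 (median 0.43). The peptidoglycan sensor gene Nod2 rose by 3.26 ± 0.16. Tlr1, Tlr2 and Tlr6, of which TLR2 pairs with either of the others, rose by 1.62 ± 0.08, 1.43 ± 0.07 and 0.97 ± 0.14. The integrin gene Itgax rose by 1.20 ± 0.09. The 3 that fell, named after their values were seen, were Tlr4 at -0.67 ± 0.13, Scarb1 at -0.64 ± 0.09 and Scara5 at -1.42 ± 0.23. Scara5 was above background on every array of 1 group only, so the filter could fix its direction. Over the 17 genes above background on every array, 11 rose and 2 fell (median 0.46). On the scanner arrays 1 gene of this list was called lower, and with spike-in scaling 0. The galectin gene Lgals3 had -0.20 ± 0.07 (adjusted p = 0.0716), and Itgam, which encodes a subunit of the complement receptor that also binds beta-glucan, had -0.01 ± 0.14 (adjusted p = 0.965).

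In the list of ITAM adaptors and partner receptors, 2 of 15 rose and 5 fell, with the same median as all named genes (-0.02). The list also counts Fcgr2b, an inhibitory receptor gene rather than an ITAM partner. With spike-in scaling 1 was called higher and 0 lower (median 0.59). Fcgr1, the high-affinity IgG receptor gene, fell by 1.39 (SE 0.23), Trem2 by 0.67 (SE 0.07) and Cd300lb by 0.61 (SE 0.06). Trem2 and Cd300lb lost their calls on the scanner arrays (adjusted p = 0.0808 and 0.0799) and had -0.16 and -0.01 with spike-in scaling, and Fcgr1 did not pass when scaled to spike-ins (-0.85, adjusted p = 0.0942) or without replicate 3 of both groups (adjusted p = 0.0742). The other two fallers, Tyrobp (DAP12) at -0.43 ± 0.07 and Hcst (DAP10) at -0.42 ± 0.07, were named after their values were seen and turned above 0 with spike-in scaling. Treml4 rose by 0.82 ± 0.22 and Fcgr2b, the inhibitory IgG receptor gene, by 0.67 ± 0.15. Treml4 lost its call without any 1 sample but control replicate 2 (adjusted p up to 0.117) and had 0.36 on the scanner arrays (adjusted p = 0.27), and Fcgr2b without control replicate 2, AEPS replicate 2 or AEPS replicate 3 (adjusted p = 0.0565, 0.0728 and 0.0722) and on the scanner arrays (0.101). The bright genes Siglech and Cd300ld had -0.10 ± 0.08 and -0.02 ± 0.07 (adjusted p = 0.369 and 0.839).

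In the list of kinases and effectors around SYK, 11 of 28 rose and 6 fell (median 0.18). Those that fell include Tcirg1 (-0.33 ± 0.08, adjusted p = 0.0299), a proton pump subunit gene rather than a SYK effector. Tcirg1 was named after its value was seen. The Src family genes Src and Fgr rose by 1.53 ± 0.16 and 0.97 ± 0.08. Src had 0.72 with normexp (adjusted p = 0.0701) and lost its call without replicate 3 of both groups (0.0511), and Fgr lost its call on the scanner arrays (0.055). Lcp2 and Blnk, the SLP family adaptors that SYK phosphorylates, rose by 1.41 ± 0.14 and 1.08 ± 0.07. The GTPase gene Rac2 had 0.20 ± 0.07 (adjusted p = 0.0714, and 0.0319 with the block), and Plcg2, which makes calcium-releasing signals after SYK, had 0.06 ± 0.08 (adjusted p = 0.587). The 17 calls were 8 higher and 3 lower without control replicate 2, 7 and 4 without AEPS replicate 2, and 7 and 3 without AEPS replicate 3. Of the 6 that fell, 4 turned above 0 with spike-in scaling.

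Inhibitors of SYK signalling split, with 6 of 17 rising and 8 falling (median 0.15). Lilrb4a, an inhibitory receptor gene, rose by 1.87 ± 0.06, and Cbl, a ubiquitin ligase of SYK pathways, by 1.32 ± 0.10. The adaptor genes Dok3 and Dok2 fell by 1.29 (SE 0.08) and 0.91 (SE 0.06), and Sirpa, the inhibitory receptor for CD47, by 1.23 (SE 0.06). With spike-in scaling these had -0.73, -0.30 and -0.68, none past the threshold (adjusted p = 0.116, 0.481 and 0.156). The phosphatase gene Ptpn22 had 0.15 ± 0.07 and the inhibitory receptor gene Cd300a 0.17 ± 0.33 (adjusted p = 0.161 and 0.736). The 14 calls were 3 higher and 6 lower without AEPS replicate 3, and 3 higher and 7 lower without control replicate 2 or without AEPS replicate 2. Without AEPS replicate 1 they were 4 higher and 6 lower. With spike-in scaling 3 of the 8 that fell turned above 0.

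Partners of the CARD9-BCL10-MALT1 complex and substrates of MALT1 rose in 12 of 25 cases and fell in 6 (median 0.23). The MALT1 substrates Zc3h12a, an mRNA-degrading enzyme, and Tnfaip3, the deubiquitinating inhibitor A20, rose by 3.19 ± 0.07 and 3.13 ± 0.07. N4bp1, also cut by MALT1, rose by 1.45 ± 0.21, and Tab2 and Tab3, partners of the kinase TAK1, by 1.34 ± 0.07 and 1.15 ± 0.23. Tab3 lost its call without AEPS replicate 2 or AEPS replicate 3 (adjusted p = 0.054 and 0.0541). N4bp1 and Tab3 also lost their calls on the scanner arrays (adjusted p = 0.051 and 0.0548), with normexp (0.72 and 0.75, adjusted p = 0.0552 and 0.076) and without replicate 3 of both groups (adjusted p = 0.0775 and 0.0928). Traf2 and Rnf31 had -0.14 ± 0.07 and -0.18 ± 0.08 (adjusted p = 0.168 and 0.162). Of the 6 that fell, 4 turned above 0 with spike-in scaling.

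At the end of the route, NF-kB and NFAT factors rose in 10 of 18 cases and fell in 1 (median 0.52). Nfkbiz rose by 4.05 ± 0.12, Rel by 2.65 ± 0.13, the inhibitor genes Nfkbie and Nfkbia by 2.13 ± 0.12 and 1.98 ± 0.07, and Bcl3 by 1.53 ± 0.10. Rela, the one that fell (-0.29 ± 0.06, adjusted p = 0.0205), was named after its value was seen and turned above 0 with spike-in scaling. The list had 0 lower calls in the scanner fits and without any 1 sample but control replicate 1. Nfatc1 had -0.09 ± 0.06 (adjusted p = 0.311; -0.29 and 0.0214 as the mean of its probes) and Irf5 -0.01 ± 0.07 (adjusted p = 0.902).

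Genes described as induced through Dectin-1 or Mincle, which other receptors also induce, rose in 15 of 17 measured cases and fell in none (median 3.62). Of the 17, 7 were above background on every array of 1 group only, and 6 of those were called, so the filter largely fixed their direction. Over the 10 genes above background on every array, 9 rose and the median was 2.90; with normexp the median of the 17 was 2.54. Il1b rose by 8.13 ± 0.13, Cxcl2 by 7.77 ± 0.11, Ptgs2 by 4.04 ± 0.09, Tnf by 3.62 ± 0.07 and Ccl4 by 3.02 ± 0.10. The exceptions were Egr1 at 0.34 ± 0.11 (adjusted p = 0.0704, and 0.0228 with the block) and Il2, above background on every array of 1 group only, at 0.55 ± 0.20 (adjusted p = 0.0947) and 0.34 ± 0.46 on the scanner arrays. With the replicate block Il2 had an adjusted p of 0.00696, with a direction the filter could fix. Which receptor AEPS engaged was not measured.

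**Figure D3:**
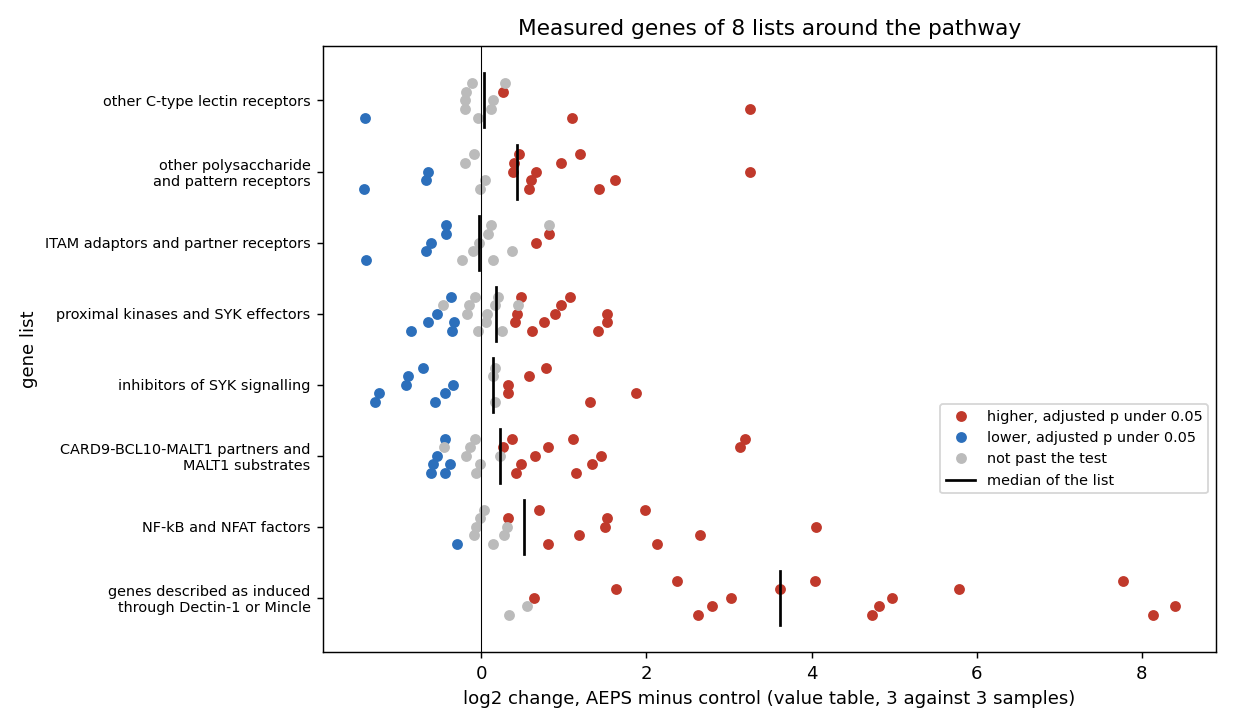
Log2 change (AEPS minus control, value table, 3 samples per group) of each measured gene in 8 lists; red and blue points passed the adjusted test as higher or lower, grey points did not, and black bars are list medians. The medians run from -0.02 for ITAM adaptors and partner receptors to 3.62 for genes described as induced through Dectin-1 or Mincle, 7 of whose 17 genes passed the filter in 1 group only (median 2.90 without them).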

How the data were processed

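Images were quantified with Agilent Feature Extraction 10.7.1.1, per the file headers. The deposited scanner files hold spot intensity after background subtraction and detrending within each array, with flags for spots above background. The authors' deposited value table holds log2 values normalized between arrays: its sorted columns differ by at most 0.01, as after quantile normalization. Its scale and direction follow the scanner signals, no gene centring was seen, but which offset was used before the logarithm, and on which genome build the array was designed, are not stated in the labels or headers.

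The table was the main source because it holds 3 distinct samples per group. Of 55681 probes, 26582 were named through a RefSeq accession, 2602 by a current symbol, 492 by an older symbol and 1734 by the file's name alone. Probes entered the test when at least 1 group had them well above background on all of its distinct scanner arrays. A gene was its brightest such probe, and probes without a name stayed separate. Groups were compared with limma 3.58.1 in R 4.3.3 without covariates, with Benjamini-Hochberg adjustment over 25845 features at 0.05. The calculation was tested on simulated data.

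Same-numbered samples deviated together from their group means (r = 0.55, 0.35 and 0.39 across genes, other pairs -0.48 to 0.23). Replicate numbers were therefore taken as pairs in the block fit. The pairing comes from these values and the numbers in the labels, which do not state it. The control and AEPS arrays that match replicate 1 shared a slide, as did those that match replicate 2. For these pairs the block cannot be told apart from the slide, and the slide of replicate 3 is not known. Deviations from a group mean cancel within the group, so part of the contrast with other pairs is built in. Scanner alternatives used the 75th percentile, the spike-ins, or normexp (offset 50) with quantile normalization. Named list genes are up to 5 largest changes past the threshold on probes above background on all arrays and the 2 brightest that did not pass; a gene that the rule names is not reported here. The 10 genes and the lists were chosen with earlier results of these data known.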

Additional observations from a re-analysis of the deposited data

How the results depend on the processing

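The direction of Clec4e, Bcl10, Malt1, Clec7a and Card9 was the same in all 17 alternatives, as was the call of Clec4e, Bcl10 and Malt1. Of 170 pairs of gene and alternative, 157 kept their side of the threshold. Clec7a had 0.58 with the scanner arrays, 0.47 with normexp and quantile normalization, 1.21 with spike-in scaling and 0.54 without replicate 3 of both groups, none past the threshold; Card9 had -0.71 with spike-in scaling. With the replicate block Clec4d (0.24), Clec4n (-0.28) and Fcer1g (0.28) passed, as they did with an intensity trend and robust eBayes at the same values (0.24, -0.28 and 0.28). These fits called 8429 and 7014 of 14978 named genes, against 6154 in the main fit. Fcer1g (0.28) also passed with the strict filter and with every probe its own feature. The paired fit ended no call among the 10 genes.

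The named genes called, 6154 (3216 higher and 2938 lower), were 1304 (783 and 521) with the scanner arrays, 2795 (1512 and 1283) with normexp, 1455 (1410 and 45) with spike-ins and 1985 (1186 and 799) without replicate 3 of both groups. Leaving out 1 sample gave 4085 to 5294 (2109 to 2862 higher, 1882 to 2599 lower). Spike-in scaling moved the median of all named genes from -0.02 to 0.53, and 1573 of the 2938 lower calls then had values above 0.

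Receptors called were 2, and 1 with the scanner arrays, with normexp, with spike-ins and without replicate 3 of both groups, and 4 with the replicate block and with the trend. The background rose too, to 8429 named genes with the block and 7014 with the trend (3640 higher and 3374 lower). Calls per list, in the order scanner arrays, normexp, spike-ins and without replicate 3 of both groups, were as follows. Other polysaccharide receptors had 6, 9, 8 and 7 (14 in the value table), ITAM adaptors and partners 1, 3, 1 and 2 (7), kinases and effectors 5, 9, 6 and 8 (17), inhibitors 5, 7, 3 and 7 (14), and partners and substrates 5, 9, 7 and 6 (18). Other C-type lectins had 2 with the scanner arrays, 1 with spike-ins, 2 without replicate 3 of both groups and 2 with the slide as block (4). NF-kB and NFAT factors had 7 with the scanner arrays (11), and genes induced through Dectin-1 or Mincle 9 with the strict filter (15), which tests fewer genes. Leaving out 1 sample gave 10 to 16 kinases and effectors and 9 to 12 inhibitors. The scanner fits use fewer arrays; the cause of other differences was not tested. Removing replicate 3 of both groups and blocking the scanner fit by slide were chosen after seeing the data. The low number of arrays limits small changes most, as for Syk and Clec4a1.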
